A study of Homo sapiens with 6 samples.

Results

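Matrix metalloproteinases, ADAM sheddases and TIMPs form the enzyme and inhibitor system that cuts the extracellular matrix and the ectodomains of cell surface proteins. They were followed here through 10 genes of a 21872-row count table, picked by symbol: Mmp2, Mmp3, Mmp9, Mmp13, Mmp14, Adam10, Adam17, Timp1, Timp2 and Timp3. The RNA came from MOC2, a line of mouse oral cavity squamous carcinoma cells, grown in DMEM with fetal bovine serum. The HuR knockout cells, so called after their genotype label although their titles say KD, had received lentiviral CRISPR/Cas9 particles against HuR. The control cells had received control CRISPR/Cas9 particles. There were 3 libraries of each. Per the labels a single clone was isolated, so the knockout libraries may share a clone, and nothing says that the libraries came from separate clones or cultures. The p-values then measure only the spread between these libraries, which may be technical. Differences that belong to such a clone cannot be told apart from those that follow the loss of HuR.

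Matrix metalloproteinases are made as inactive proenzymes, with a propeptide that is removed by other proteases, and they depend on zinc. MMP14 sits in the plasma membrane, where a complex with TIMP2 receives and activates pro-MMP2, while free TIMP2 blocks the enzyme. ADAM10 and ADAM17 are membrane-bound and release growth factors, cytokines, adhesion molecules and receptors from the cell surface. TIMP3, which binds to the matrix, is the TIMP best known for inhibiting ADAM17, and TIMP1 is known to inhibit ADAM10. HuR, the product of Elavl1, binds AU-rich stretches of mRNA, and the mRNA of MMP9 is among the transcripts it is known to bind and stabilise in rat mesangial cells.

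Library totals lay between 16158516 and 21294330 counts after a correction described under the processing, which touched Mmp3 alone among the 10 genes. Levels are given as CPM, the usual scaling of RNA-seq counts by library total, here also scaled for composition, and serve to compare libraries for the same gene, since they are not adjusted for transcript length. Elavl1 mRNA itself stood at 116, 114 and 105 CPM in knockout libraries 1, 2 and 3, against 107, 119.7 and 117 CPM in control libraries (log2 fold change -0.04, 95% interval -0.30 to 0.23, adjusted p = 0.82 in edgeR's quasi-likelihood test). Editing of a gene need not lower its mRNA, so this neither checks nor contradicts the labels. Knockout library 3 stood apart from the other knockout libraries, with log2 CPM correlations of 0.924 and 0.931 across genes where the other pair had 0.978. For the 10 genes and the genes of the related lists that are named in the text, calls that changed without that library are also given without it. So are called values that moved over 1.5-fold. Genes of the lists that are not named also changed calls without it.

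Among the 10 genes, Adam10 rose 2.54-fold, Timp2 rose 1.5-fold and Timp3 fell 12.8-fold in HuR knockout cells. Mmp9, Mmp14, Timp1 and Adam17 were tested and did not pass, and Mmp2, Mmp3 and Mmp13 had too few counts to test. Thus 3 of the 7 genes tested changed (42.9%), against 35.7% of all 12293 genes tested, at an adjusted p under 0.05. For higher values the background was 20.3% and for lower values 15.4%. The groups did not overlap for 4 of the 7 (57.1%), against 57.6% of all genes tested, of which 29.7% had knockout above and 27.9% knockout below. The share that changed was thus close to that of the table as a whole. The median log2 fold change of the 7 was 0.19, against 0.03 for all genes tested. Mmp9 and Timp3 entered the test mainly through their control counts, as knockout libraries 2 and 3 held 6 counts or fewer of each.

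**Figure D1:**
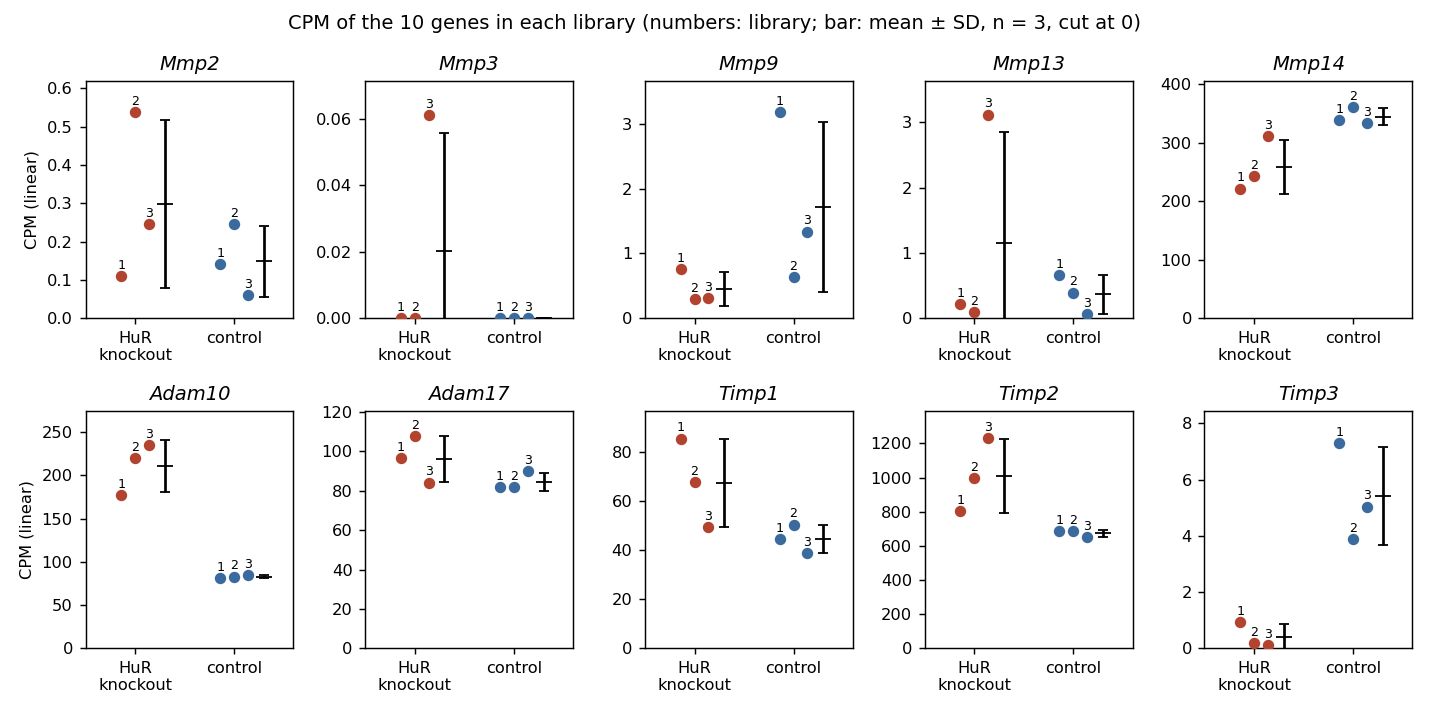
Level of each of the 10 genes in CPM (vertical axes, linear and different for each gene) in the 3 HuR knockout and 3 control libraries, with points numbered by library and bars for mean ± SD, cut at 0. Adam10 and Timp2 stand above all control libraries in every knockout library, Mmp14 and Timp3 stand below, and Mmp13 is high in knockout library 3 alone.

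The gelatinase gene Mmp9, whose product degrades denatured collagen and collagen IV, was rarely counted in these cells. It had 0.762, 0.294 and 0.306 CPM in knockout libraries 1, 2 and 3, against 3.18, 0.638 and 1.34 CPM in control libraries 1, 2 and 3. Knockout library 1 lay above control library 2, so the groups overlapped, and control library 1 alone held 68 of the 103 control counts. Mmp9 averaged 0.454 ± 0.267 CPM in knockout and 1.72 ± 1.31 CPM in control (SD, n = 3 each). Its log2 fold change was -1.91 (SE 0.72, 95% interval -3.63 to -0.19, adjusted p = 0.0819 in edgeR's quasi-likelihood test). Without control library 1 the log2 fold change was -1.10 (adjusted p = 0.275), and without knockout library 1 it was -2.50 (0.0676). By DESeq2 the adjusted p was 0.0454, and the range over all 15 alternatives was 0.0427 to 0.275.

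The second gelatinase, Mmp2, the substrate of the MMP14 and TIMP2 complex, was close to the detection limit in both groups. Knockout libraries 1, 2 and 3 held 2, 11 and 4 counts, against 3, 5 and 1 counts in control libraries. That is 0.109, 0.539 and 0.245 CPM in knockout and 0.14, 0.245 and 0.0607 CPM in control. The pooled counts gave a level 1.99 times higher in knockout with an exact 95% interval of 0.841 to 5.08, for counting error only, so a difference was not detectable at this depth. Without knockout library 2, the ratio was 1.12 (0.327 to 3.52), and without knockout library 1 it was 2.64 (1.08 to 6.84). Leaving out any other library gave an interval that held 1.

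Mmp13, the main interstitial collagenase of mice, differed between knockout libraries more than between the groups. It held 4, 2 and 51 counts in knockout libraries 1, 2 and 3 (0.218, 0.098 and 3.12 CPM), against 14, 8 and 1 counts in control libraries (0.655, 0.393 and 0.0607 CPM). The level in knockout library 3 was 19.8 times the mean of the other knockout libraries. Pooled over libraries it was 2.62 times higher in knockout (1.59 to 4.45, counting error only). Without knockout library 3 the direction turned, to 2.55 times lower in knockout (counting interval above 1 and up to 7.67). No direction can therefore be given for Mmp13. Where fewer libraries or no filter let it into edgeR's test, its adjusted p lay between 0.225 and 0.634.

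The stromelysin gene Mmp3, an activator of other MMP proenzymes, had a single count in knockout library 3 and none in the other 5 libraries. The deposited value was 11 in that library, in a row that was divided by 11. A count of 0 over the control group allows up to 0.0515 CPM, and both groups were at or under the floor of 3 counts.

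Mmp14, the membrane-anchored metalloproteinase, made up 98.8% to 99.6% of the counts of the 5 MMP genes in every library. It had 222, 243 and 312 CPM in knockout libraries 1, 2 and 3, against 339, 361 and 334 CPM in control libraries. All knockout libraries were below all control libraries, and knockout library 3 was nearest to them. It averaged 259 ± 46.8 CPM in knockout and 345 ± 14.5 CPM in control (SD, n = 3 each). The log2 fold change was -0.41 (SE 0.16, 95% interval -0.79 to -0.04, adjusted p = 0.0851 in edgeR's quasi-likelihood test), which did not pass. It passed by DESeq2 (adjusted p = 0.0407) and without knockout library 3 (log2 fold change -0.57, adjusted p = 0.00146).

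Adam10, the sheddase of Notch receptors, cadherins and several cytokines, had the smallest adjusted p of the 7 genes tested. It had 177, 220.1 and 235 CPM in knockout libraries 1, 2 and 3, against 81.3, 82.8 and 85 CPM in control libraries. Every knockout library held more than 2 times the level of every control library, and the control libraries lay within 1.05 times of each other. Adam10 averaged 211 ± 30.4 CPM in knockout and 83.1 ± 1.88 CPM in control (SD, n = 3 each), which is 2.54-fold higher (95% interval 2.01 to 3.21, adjusted p = 0.00111 in edgeR's quasi-likelihood test). It passed under all 15 alternatives, with log2 fold changes of 1.26 to 1.45. In absolute size its log2 fold change exceeded that of 80.4% of the genes tested.

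Adam17, the sheddase of TNF and of EGF receptor ligands, moved little. It had 96.5, 108 and 84.1 CPM in knockout libraries 1, 2 and 3, against 81.7, 81.8 and 89.8 CPM in control libraries. The groups overlapped, with knockout library 3 below control library 3. The fold change was 1.14 (95% interval 0.918 to 1.41, adjusted p = 0.301 in edgeR's quasi-likelihood test), so an increase above 1.41-fold lay outside the interval. Without knockout library 3 it passed, with a log2 fold change of 0.28 (adjusted p = 0.0478). The intervals of Adam10 and Adam17 did not overlap, but the difference between the 2 fold changes was not tested.

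The 3 inhibitor genes did not move together. Timp2, which both inhibits MMPs and takes part in pro-MMP2 activation, had 802, 999 and 1233 CPM in knockout libraries 1, 2 and 3. Control libraries had 687, 685 and 652 CPM, below all knockout libraries and close to each other. The increase was 1.5-fold (95% interval 1.12 to 2.01, adjusted p = 0.0424 in edgeR's quasi-likelihood test). The call was near the threshold. Leaving out control library 1, 2 or 3 ended it (adjusted p = 0.122, 0.147 and 0.159), as did leaving out knockout library 2 (0.0867), RLE size factors (0.0503), no filter on low counts (0.0573), the replicate number as a block (0.0932) and a test against a 1.5-fold change (0.623). The log2 fold change stayed between 0.42 and 0.73 in all 15 alternatives.

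Timp1, a secreted inhibitor of most soluble MMPs, stood at 85.6, 67.8 and 49.7 CPM in knockout libraries 1, 2 and 3, against 44.7, 50.6 and 38.8 CPM in control libraries. Knockout libraries 1 and 2 were above all control libraries, and knockout library 3 lay just below control library 2. The fold change of 1.51 (95% interval 1.05 to 2.18) did not pass (adjusted p = 0.0763 in edgeR's quasi-likelihood test). Without knockout library 3 it passed, with a log2 fold change of 0.78 (adjusted p = 0.00302). Timp2 and Timp1 thus had nearly the same fold change, but knockout library 3 was highest of the knockout libraries for Timp2 and lowest for Timp1.

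Timp3, the matrix-bound inhibitor, was the least counted of the 3 TIMP genes and fell to near the detection limit. It made up 0.988%, 0.524% and 0.725% of their counts in control libraries 1, 2 and 3. It had 0.926, 0.196 and 0.122 CPM in knockout libraries 1, 2 and 3, from 17, 4 and 2 counts, against 7.3, 3.88 and 5.04 CPM in control libraries, from 156, 79 and 83 counts. Every control library was more than 4 times above every knockout library. The decrease was 12.8-fold (95% interval 3.9 to 42, adjusted p = 0.00955 in edgeR's quasi-likelihood test), and the log2 fold change of -3.68 exceeded in absolute size that of 93.9% of the genes tested. Knockout library 1 supplied most of the knockout counts, and without it the decrease was 32.1-fold. Timp3 passed under all 15 alternatives, with adjusted p up to 0.04. Of genes outside the 10 with at least 5 CPM on average, those whose log2 CPM followed Timp3 most closely over the 6 libraries were Lypd3 (Pearson's r = 0.998), Rnf208 (0.998) and Zc3h14 (0.997). This description rests largely on the difference between the groups and ignores its size. Lypd3 and Rnf208 fell (log2 fold change -3.14 and -3.08, adjusted p = 0.00912 and 0.00823 in edgeR's quasi-likelihood test). Zc3h14 moved little and did not pass (-0.20, adjusted p = 0.19).

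**Figure D2:**
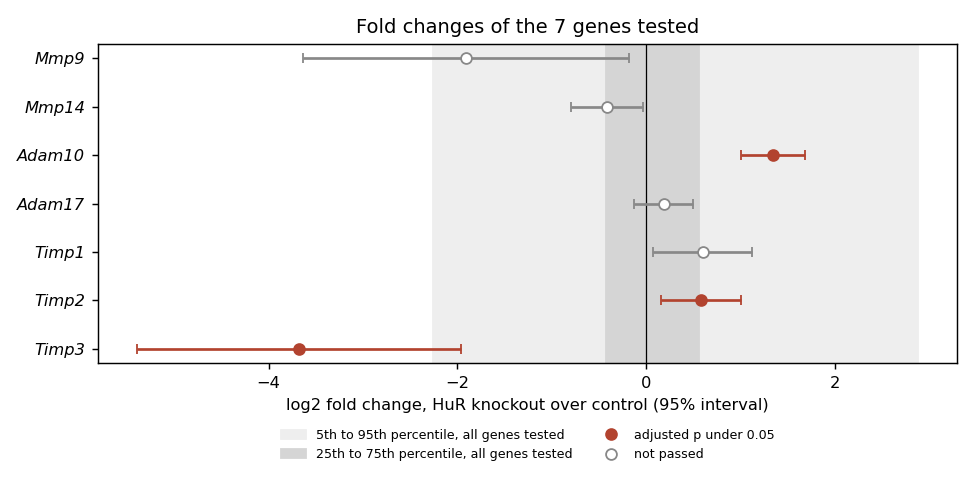
Log2 fold change of HuR knockout over control (horizontal axis) with 95% intervals for the 7 genes tested, on bands that hold the middle of the fold changes of all genes tested (25th to 75th and 5th to 95th percentile). Adam10 at 1.34 and Timp2 at 0.58 are higher, Timp3 at -3.68 is lower and falls outside the wider band, which starts at -2.26.

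Timp1 and Timp3 are known to lie within introns of the synapsin genes Syn1 and Syn3, and the strand setting of the counting is not given in the sources used here. Syn1 had 135, 169 and 26 counts in knockout libraries, against 275, 192 and 196 in control libraries, where Timp1 had 812 or more in every knockout library and 639 or more in every control library. Syn3 had 3, 0 and 0 counts in knockout libraries, against 10, 8 and 13 in control libraries. How far overlapping gene models shared reads was not tested.

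The balance of protease to inhibitor was described by the ratio of their counts within each library, which does not depend on how libraries are scaled. The level of such a ratio carries the lengths of both transcripts, so only its difference between groups is read. Of the pairs computed, Mmp14 to Timp2 varied least within the groups. This ratio was 0.277, 0.244 and 0.253 in knockout libraries 1, 2 and 3, against 0.494, 0.528 and 0.513 in control libraries. The log2 ratio averaged -1.96 ± 0.09 in knockout and -0.97 ± 0.05 in control (SD, n = 3 each), a 1.99-fold lower balance of Mmp14 over Timp2 in knockout. Knockout library 3, the highest of the knockout libraries for both genes, lay between the other knockout libraries in their ratio.

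For Adam17 to Timp3 the ratio was 104, 551 and 688 in knockout libraries 1, 2 and 3, against 11.2, 21.1 and 17.8 in control libraries. The mean log2 ratio was higher by 4.40 in knockout, with 2 to 17 Timp3 counts in the knockout libraries, and by 5.25 without knockout library 1. The ratio of Mmp9 to Timp1 was lower in knockout in every library, with a mean log2 difference of -2.34, and control library 2 (log2 ratio -6.31) lay close to knockout library 1 (-6.81). The ratio of Adam10 to Timp1 was 2.06, 3.25 and 4.74 in knockout libraries, against 1.82, 1.64 and 2.19 in control libraries, so that the groups overlapped. The ratio of Mmp2 to Timp2 overlapped as well, with mean log2 values of -12 ± 1.03 in knockout and -12.4 ± 0.98 in control (SD, n = 3 each). No p is given for these ratios, since the pairs combine genes that are described one by one above.

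**Figure D3:**
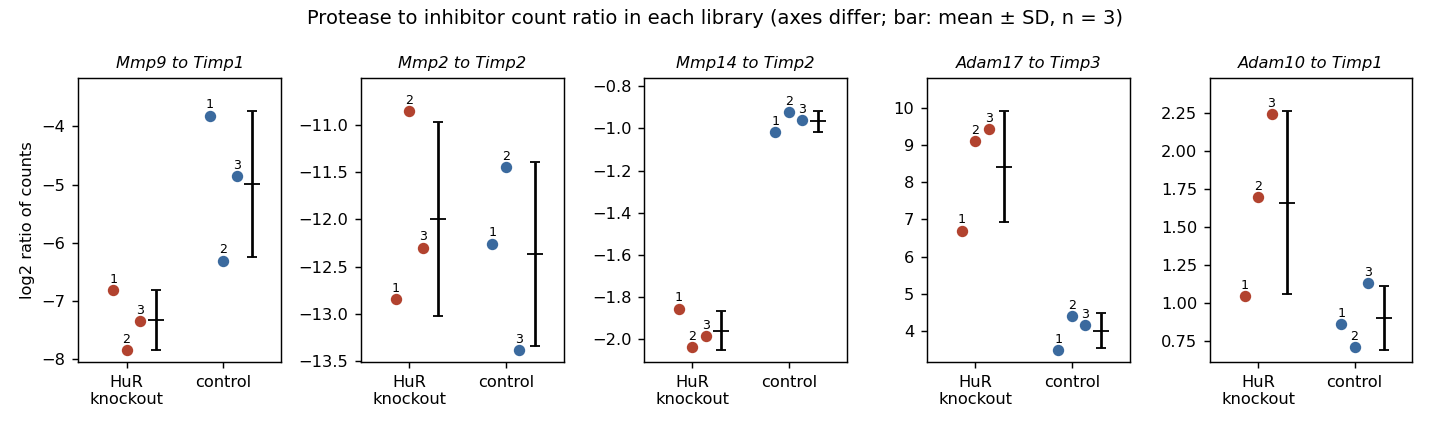
Log2 ratio of the counts of a protease gene to those of an inhibitor gene (vertical axes, different for each pair) in each numbered library, with bars for mean ± SD of 3 libraries. Mmp14 to Timp2 falls into separate narrow groups at -1.96 in HuR knockout and -0.97 in control, and Adam17 to Timp3 is at 8.41 in HuR knockout and 4.01 in control.

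The other genes of the 3 families changed in both directions. Of 18 other MMP genes, 11 had a count and 6 were tested, of which 3 rose, 2 fell and 1 did not pass; without control library 2, 1 fell. A gene near 0 in a group could enter the test only through its counts in the other group, which favours large changes. The same filter held for all genes tested, but the lists were chosen with earlier results of these data known. No excess is therefore read from the 83.3% changed among these 6, against 35.7% of all genes. Mmp19 had 15.4, 15 and 107 CPM in knockout libraries, against 0.327, 0.0982 and 0.0607 CPM in control libraries. Its log2 fold change was 8.02 (adjusted p = 0.00401 in edgeR's quasi-likelihood test), 6.43 without knockout library 3 and 9.02 without control library 1. Mmp28, known as epilysin and expressed in skin keratinocytes, had 21.5, 19.5 and 66.9 CPM in knockout libraries, against 1.22, 0.687 and 0.607 CPM in control libraries (42.2-fold higher, adjusted p = 0.00183 in edgeR's quasi-likelihood test; 24-fold without knockout library 3). Knockout library 3 was the highest for both genes, and the groups stayed apart without it.

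The membrane-type gene Mmp24 went the other way, with 0.0545, 0.245 and 0 CPM in knockout libraries, against 3.46, 4.17 and 5.28 CPM in control libraries (log2 fold change -5.25, adjusted p = 0.00292 in edgeR's quasi-likelihood test). Without knockout library 2 its log2 fold change was -6.92. Mmp15, another membrane-type gene, picked after its values were seen, fell with a log2 fold change of -1.63 (adjusted p = 0.0243), a call lost without knockout library 2 (adjusted p = 0.0674) or control library 1, 2 or 3 (0.0864, 0.0572 and 0.0526). Mmp11, also picked afterwards, rose with 1.08 (adjusted p = 0.0401), a call lost without knockout library 1 (0.0615) or control library 1, 2 or 3 (0.0575, 0.13 and 0.121). Of the 7 MMP genes on the list with no count in any library, Mmp7 and Mmp8, the matrilysin and the neutrophil collagenase, are known from epithelia and neutrophils.

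Of 11 other ADAM genes, 7 were tested, of which 2 rose, 3 fell and 2 did not pass (71.4% changed, against 35.7% of all genes, with the same limit as for the MMP genes). Adam8, a protease studied in leukocytes and in invasive tumours, fell to 43.1, 9.8 and 9.12 CPM in knockout libraries, against 206, 158 and 169.6 CPM in control libraries. Its log2 fold change was -3.10 (adjusted p = 0.0119 in edgeR's quasi-likelihood test), and -4.23 without knockout library 1, which lay above the other knockout libraries. Adam22, a catalytically inactive family member that binds LGI proteins in neurons, had at most 0.327 CPM in knockout and at least 10.6 CPM in control (log2 fold change -5.89, adjusted p = 0.000511). Adam15 rose to 174, 174 and 290.0 CPM in knockout libraries, against 109, 88.6 and 96.2 CPM in control libraries, a log2 fold change of 1.12 (adjusted p = 0.0119). It no longer passed when control library 2 or 3 was left out (adjusted p = 0.0626 and 0.0587). Without knockout library 1, 4 ADAM genes rose, and without control library 1, 2 or 3, 1, 0 and 1 did.

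The secreted ADAMTS proteases, which cut proteoglycans and procollagens, changed in both directions. Of 19 genes 10 were tested, of which 6 rose, 1 fell and 3 did not pass, with a median log2 fold change of 1.47, against 0.03 for all genes tested. No excess is read from the 70% changed, against 35.7% of all genes, as for the MMP genes. Adamts2, a procollagen N-proteinase, had 5.45, 25.2 and 38.1 CPM in knockout libraries, against 0.14, 0 and 0.0607 CPM in control libraries. Its log2 fold change was 8.25 (adjusted p = 0.00236 in edgeR's quasi-likelihood test), 9.38 without control library 1 and 7.66 without control library 2. Adamts9, a versican-cleaving protease, had 70.3, 209.8 and 90.9 CPM in knockout libraries, against 10.1, 5.74 and 7.23 CPM in control libraries (16.1-fold higher, adjusted p = 0.00192 in edgeR's quasi-likelihood test; 10.5-fold without knockout library 2). Adamts10 rose with a log2 fold change of 1.24 (adjusted p = 0.00948). The member that fell, named after its value was seen, was Adamts6 (log2 fold change -2.95, adjusted p = 0.0102; -3.76 without knockout library 1).

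Of 4 other inhibitors only Reck, a membrane-anchored MMP inhibitor, was tested, and it rose. It had 4.96, 8.77 and 15.7 CPM in knockout libraries, against 1.12, 1.28 and 1.52 CPM in control libraries, a log2 fold change of 2.90 (SE 0.47, adjusted p = 0.0049 in edgeR's quasi-likelihood test). The fourth TIMP, Timp4, had 0, 3 and 9 counts in knockout libraries 1, 2 and 3 after division by 11 and none in control libraries, too few to test. The values as deposited, without a filter, or without knockout library 1 or control library 1, gave 2 risen inhibitors.

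**Figure D4:**
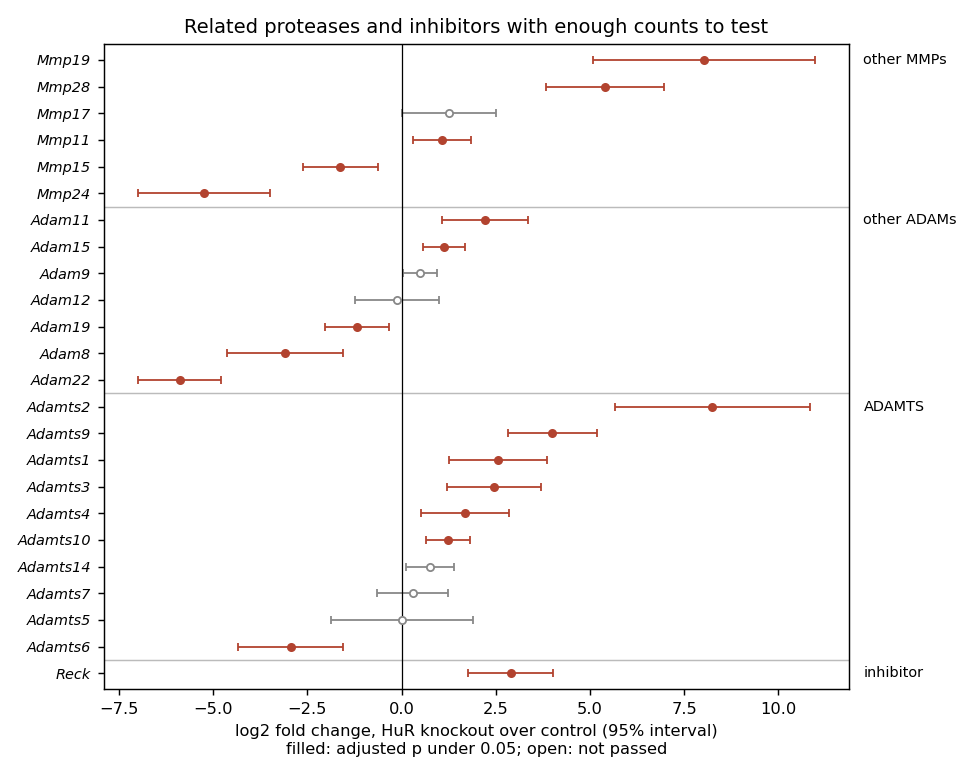
Log2 fold change of HuR knockout over control (horizontal axis) with 95% intervals for the related protease and inhibitor genes that had enough counts to test, grouped by family, filled where the adjusted p was under 0.05. Mmp19 at 8.02 and Adamts2 at 8.25 lie farthest to the right, and Adam22 at -5.89 and Mmp24 at -5.25 farthest to the left.

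Proteins that govern the sheddases were examined next. ADAM10 leaves the endoplasmic reticulum with a tetraspanin of the TspanC8 group, and different TspanC8 members are known to direct it to different substrates. ADAM17 depends on the iRhom proteins Rhbdf1 and Rhbdf2 and on their partner Frmd8. Of 9 such genes 8 were tested, of which 2 rose, 2 fell and 4 did not pass. That is 50% changed, against 35.7% of all genes, with the same limit as for the MMP genes. Tspan17 rose 4.04-fold, to 29.7, 43.8 and 35.7 CPM in knockout libraries, against 8.98, 8.44 and 9.6 CPM in control libraries (adjusted p = 0.000754 in edgeR's quasi-likelihood test). Its close paralogue Tspan5, picked after its values were seen, had 46.1, 46.9 and 89.9 CPM in knockout libraries, against 23, 22.9 and 21.2 CPM in control libraries, a log2 fold change of 1.45 (adjusted p = 0.00982; 0.0506 without control library 3).

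Tspan14 fell 1.76-fold, to 80.6, 72.8 and 83.4 CPM in knockout libraries, against 144, 141 and 131 CPM in control libraries (adjusted p = 0.0029 in edgeR's quasi-likelihood test). Tspan33 fell 4.53-fold (adjusted p = 0.00755). Tspan15, picked after its values were seen, did not pass, with overlapping groups (log2 fold change 0.51, adjusted p = 0.279). The ADAM17 partners, also picked afterwards, did not pass. Rhbdf2 had 20.9, 16.6 and 46.4 CPM in knockout libraries, against 56.8, 47 and 60.6 CPM in control libraries (log2 fold change -0.97, adjusted p = 0.0951), with knockout library 3 just below the control range, and it passed without that library (-1.55, adjusted p = 0.000166). Rhbdf1 had a log2 fold change of 0.17 (adjusted p = 0.401) and Frmd8 of 0.05 (0.771). Without control library 3, 1 of the partners rose.

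Known substrates of ADAM10 and ADAM17 changed in both directions. Of 27 such genes 25 were tested, of which 4 rose, 12 fell and 9 did not pass. The median log2 fold change of the 25 was -0.33. No excess is read from the 64% changed, against 35.7% of all genes, since this list too was chosen with earlier results known. The chemokine Cxcl16, which is anchored in the membrane until shed, had 12.3, 5 and 9.79 CPM in knockout libraries, against 217, 216 and 206 CPM in control libraries (log2 fold change -4.56, adjusted p = 0.000472 in edgeR's quasi-likelihood test). Cdh1, whose product E-cadherin is cut by ADAM10, had 66.6, 30.7 and 36.6 CPM in knockout libraries, against 683, 557 and 556 CPM in control libraries (log2 fold change -3.74, adjusted p = 0.000694). The groups lay far apart for both genes.

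EGF receptor ligands, named after their values were seen, were among those that fell, namely Hbegf (-2.63 on the log2 scale, adjusted p = 0.00107), Areg (-2.30, 0.0217), Btc (-1.75, 0.0223) and Tgfa (-1.72, 0.000723). Without control library 1, 2 or 3 the calls were lost for Areg (adjusted p = 0.0603, 0.0639 and 0.0682) and Btc (0.0711, 0.0635 and 0.0734). Areg also lost its call without knockout library 3 (0.0757), and its log2 fold change was -3.27 without knockout library 1. Ereg, a ligand of the same receptors, did not pass (0.36, adjusted p = 0.564). Of the 4 that rose, Mertk, a phagocytic receptor tyrosine kinase, had 42.6, 51 and 99.2 CPM in knockout libraries, against 1.64, 1.03 and 1.15 CPM in control libraries (log2 fold change 5.64, adjusted p = 0.000485). The others, picked after their values were seen, were Il6ra and the TNF receptor genes Tnfrsf1b and Tnfrsf1a (3.01, 1.74 and 1.28); Il6ra had 2.29 without knockout library 3. Other receptor tyrosine kinase genes, also picked afterwards, did not rise: Met fell (-0.83, adjusted p = 0.00826) and Axl did not pass (0.36, adjusted p = 0.314). Notch1 and Notch2, classical ADAM10 substrates picked afterwards as well, did not pass (0.32 and -0.25, adjusted p = 0.519 and 0.431), though Notch2 did without knockout library 3 (-0.55, 0.00375). These are mRNA levels, and no shed protein was measured.

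**Figure D5:**
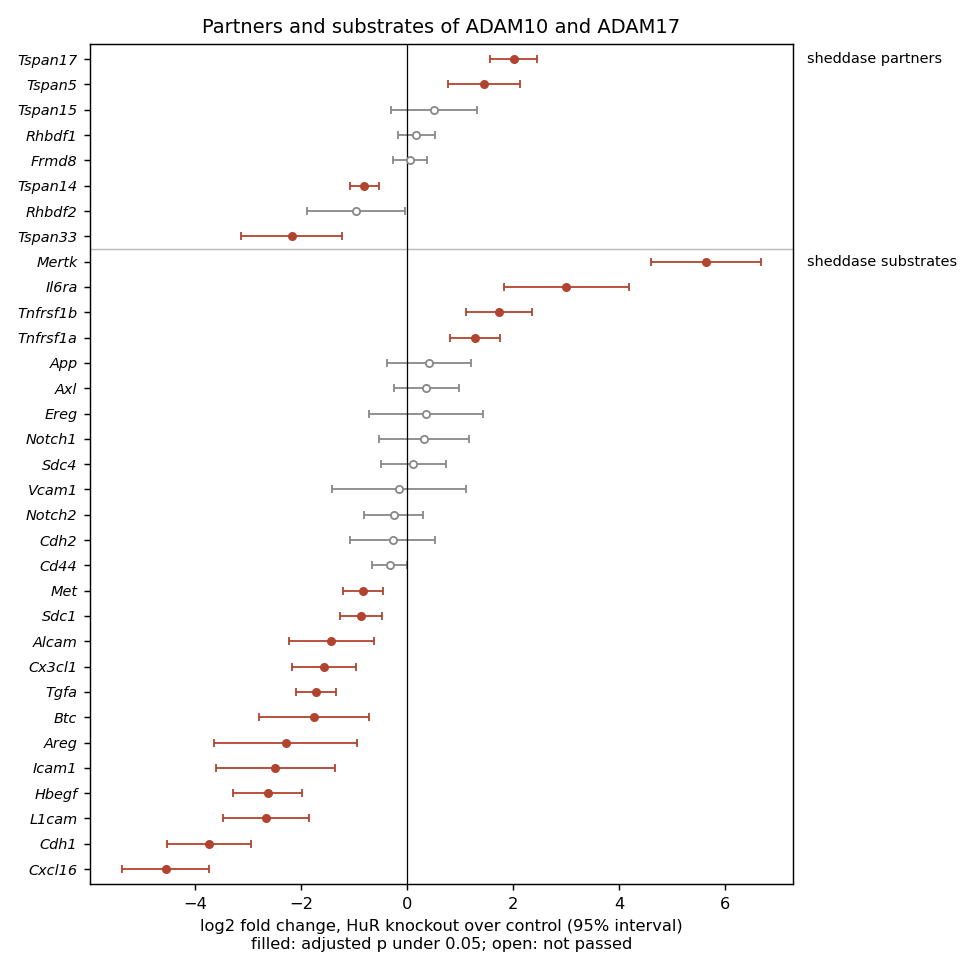
Log2 fold change of HuR knockout over control (horizontal axis) with 95% intervals for partner and substrate genes of ADAM10 and ADAM17, filled where the adjusted p was under 0.05. Tspan17 (2.01) and Tspan33 (-2.18) mark the ends of the partner group, and Mertk (5.64) and Cxcl16 (-4.56) those of the substrates.

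Genes for proenzyme activation and docking were mixed. Of 14, 13 were tested, of which 2 rose, 4 fell and 7 did not pass. That is 46.2% changed, against 35.7% of all genes, with the same limit as for the MMP genes. Without knockout library 3, 4 rose. The risen genes, picked after their values were seen, were Itgb3, an integrin chain (13.7-fold, adjusted p = 0.00366; 20.6-fold without control library 1), and Lrp1, an endocytic receptor that clears proteases (11.7-fold, adjusted p = 0.00532). Furin, also picked afterwards, the convertase that removes the propeptides of MMP14 and the ADAM sheddases, had a log2 fold change of 0.06 (adjusted p = 0.803 in edgeR's quasi-likelihood test). Of its relatives, Pcsk5 fell (adjusted p = 0.000645), with 2, 1 and 0 counts in knockout libraries, against 153, 115 and 93 counts in control libraries. Pooled over libraries, its level was 114 times lower in knockout (38.7 to 555, counting error only), and 228 times lower without knockout library 1 (40.7 to 9030). Pcsk6 fell with a log2 fold change of -2.74 (adjusted p = 0.00081), while Pcsk7, picked after its values were seen, did not pass (0.22, adjusted p = 0.421) except without knockout library 3 (0.41, 0.0201). Plau, the urokinase that generates plasmin, fell 9.91-fold (adjusted p = 0.00253). Lcn2, whose product binds MMP9, picked afterwards too, had 2.51, 1.91 and 62.3 CPM in knockout libraries, against 4.63, 0.687 and 2.13 CPM in control libraries, and did not pass (log2 fold change 3.15, adjusted p = 0.142; -0.18 and 0.86 without knockout library 3).

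Matrix genes that MMPs are known to cut changed in both directions. Of 23 substrates 20 were tested, of which 6 rose, 9 fell and 5 did not pass. That is 75% changed, against 35.7% of all genes, from which no excess is read, as for the MMP genes. The interstitial collagen gene Col3a1 had 216, 233 and 229 CPM in knockout libraries, against 0.608, 0.736 and 0.85 CPM in control libraries (log2 fold change 8.27, adjusted p = 1.5e-05 in edgeR's quasi-likelihood test). The basement membrane collagen gene Col4a4 fell with a log2 fold change of -7.51 (adjusted p = 0.000641), -8.74 without knockout library 1 and -6.90 without knockout library 2.

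Markers of cell types that make these proteases were read in the same libraries. In bulk RNA, fewer cells of a type and less RNA per cell cannot be told apart. The 9 epithelial markers summed to 5791 to 8515 CPM in knockout and 11083 to 13786 CPM in control. Of the 8 tested, 6 fell and 2 did not pass (75% lower, against 15.4% of all genes tested). Epcam was at 25.3 to 55.1 CPM in knockout and 501 to 619 CPM in control. Krt19 was at 2591 to 4159 CPM in knockout and 2701 to 2996 CPM in control. The untested Krt5 had 55 counts in knockout and 2 in control. The 10 fibroblast markers summed to 408 to 430 CPM in knockout, nearly all from Col1a1, Col3a1 and Pdgfrb, against 3.73 to 8.47 CPM in control, while Lum was at 0 in every library and Dcn at most 0.795 CPM. The 10 neutrophil markers summed to 0.327 to 0.441 CPM in knockout and 7.27 to 16.7 CPM in control, where nearly all of it was Ly6g, with S100a9, Elane, Ngp, Camp and Cxcr2 at 0 in every library. Of 10 macrophage markers Adgre1, Itgam and C1qb were at 0 in every library and Ptprc at 0.187 CPM in control library 1 and 0 elsewhere. The list summed to 2.01 to 37.1 CPM in knockout and 19 to 30.6 CPM in control, nearly all from Cd68 and Mrc1. Mrc1 fell, to 0.49, 0.196 and 0 CPM in knockout libraries, against 21.9, 16.4 and 26.7 CPM in control libraries (adjusted p = 0.00128 in edgeR's quasi-likelihood test). Cd68 did not pass, with 3.1, 1.76 and 36.8 CPM in knockout libraries and 5.8, 2.16 and 3.64 CPM in control libraries. The 7 endothelial markers summed to 0.545 to 1.96 CPM in knockout and 0.54 to 0.729 CPM in control. The 8 osteoblast and chondrocyte markers, of interest for Mmp13, summed to 85.6, 47.3 and 173 CPM in knockout libraries 1, 2 and 3 and to 111 to 124 CPM in control, most of it Sox9. Of the 3 tested, Sox9 did not pass and Acan fell (log2 fold change -3.23, adjusted p = 0.00459 in edgeR's quasi-likelihood test). Sp7 rose, and entered the test through its knockout counts alone (27, 39 and 10 after division by 11, against 0 in every control library). Untested were Ibsp (43 counts in knockout, 0 in control), Col2a1 (58 and 8), Alpl (27 and 15), Bglap (0 and 5) and Col10a1 (1 and 2). The part of other cells in the levels of Mmp9, Mmp13 and Timp3 was not tested.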

How the data were processed

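The data were 1 count table with a row for each gene symbol and a column for each of 6 libraries, 3 HuR knockout and 3 control. Column names match the library names in the sample descriptions, and titles give the groups. The authors deposited whole-number counts; per the submitters' processing notes, STAR 2.7.1a, featureCounts and hg38 are named, with no role spelled out, although the symbols are those of mouse and the labels give human as the species. Annotation, strandedness and filtering were not given in the sources used here, and no mouse sequence or coordinate was used here.

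The 1704 rows that had counts but none in control library 1 held only multiples of 11, which no other row did; they were divided by 11. The test was edgeR 4.0.16 under R 4.3.3 (filterByExpr with a minimum count of 10, TMM scaling, robust quasi-likelihood test, Benjamini-Hochberg adjustment over all 12293 genes tested, threshold 0.05). CPM are relative to the TMM-scaled library total. Standard errors were derived from the F statistic. Intervals of pooled counts are exact 95% binomial intervals and cover counting error only, as does the floor of 3 counts. The biological coefficient of variation was 28%. Every pair of libraries of a group differed by more than sampling noise. The procedure was tested on simulated counts.

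The 10 genes and the related lists were chosen with earlier results of these data known. The named genes are the 10, Elavl1, from each list up to 3 genes with adjusted p under 0.05 and at least 1 CPM on average, taken by smallest p, and 3 genes most like the member with the largest change; any other gene in the text was picked after its values were seen. A gene that this rule names is not reported here. Alternatives were the values as deposited, those rows left out, other scalings, DESeq2 1.42.0, limma-voom (limma 3.58.1), no filter, a replicate block, a test against a 1.5-fold change and leaving out each library. A correction for same-numbered samples was not part of the main test, as nothing says that the numbers pair them.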

Additional observations from a re-analysis of the deposited data

How the results depend on the processing

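Adam10 and Timp3 kept their direction and passed under all 15 alternatives, and the 7 genes tested kept their direction in each. Leaving out a library gave 1166 to 3178 genes higher and 1130 to 2843 lower in knockout, where the full set gave 2493 and 1899; among the 10 genes it gave 1 to 4 higher and 1 to 2 lower, where the full set gave 2 and 1. The 4 higher were found without knockout library 3. Testing for changes beyond 1.5-fold left 1307 genes higher and 973 lower, and 1 of the 10 higher. RLE size factors and no filter on low counts each also left 1 of the 10 higher, and DESeq2 called 3 lower. With the replicate number as a block, 1976 genes were higher and 1615 lower, and of the 10 genes 1 was higher and 2 were lower, Mmp9 gaining its call and Timp2 losing it. Same-numbered libraries deviated together with correlations of -0.05, 0.26 and 0.02, and not every library correlated best with its own number, so the numbers were not taken to pair the samples. With 1 count added to both genes, the protease to inhibitor ratios moved by less than the spread between libraries. Leaving out a library could not move them by more than that spread. The values as deposited left them unchanged, so neither setting tests them. The small difference in Mmp2 to Timp2 (0.36 on the log2 scale) changed sign without knockout library 2 (-0.21) or control library 3 (-0.15). Other scalings moved the median of all genes by at most 0.02 on the log2 scale. Depth limits Mmp2, Mmp3 and Mmp13, with at most 57 counts in a group.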

Other observations

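Transcription factors known to act on MMP promoters were mostly not past the threshold. Of 17 genes tested, 2 rose, 3 fell and 12 did not pass (without control library 1, 2 or 3, 1 fell). That is 29.4% changed, against 35.7% of all genes tested, with the same limit as for the MMP genes. Etv1, an ETS factor, had 12.3, 16.6 and 15.8 CPM in knockout libraries, against 2.15, 1.72 and 3.34 CPM in control libraries (log2 fold change 2.64, adjusted p = 0.00159 in edgeR's quasi-likelihood test). Runx2, a regulator of Mmp13 in bone, had 51.2, 51.9 and 58.8 CPM in knockout libraries, against 20.8, 23.4 and 28.8 CPM in control libraries (log2 fold change 1.15, adjusted p = 0.00293). Elf3, an epithelial ETS factor, fell with a log2 fold change of -3.56 (adjusted p = 0.00453; -4.24 without knockout library 1).

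The AP-1 gene Fos, named after its values were seen, varied widely within both groups, with 206, 4.21 and 372 CPM in knockout libraries 1, 2 and 3, against 225, 5.84 and 50 CPM in control libraries 1, 2 and 3 (adjusted p = 0.623 in edgeR's quasi-likelihood test). Jun, also named afterwards, had 243, 62.5 and 294 CPM in knockout libraries, against 132, 57.5 and 90.3 CPM in control libraries (adjusted p = 0.181; 0.0268 without knockout library 2).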
